A study of Mus musculus with 53 samples.

Results

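The genes described here are 43 cell cycle genes, measured in single T1 pre-HSCs, the type 1 precursors of blood stem cells. They comprise 17 genes of S phase, when DNA is copied, and 26 genes of G2 and M phase, when the cell prepares for division and divides. They were taken by symbol from a list of 45 known cell cycle genes, and they stand among 14833 genes in the table. Gins2 and Cdc6, the other listed S genes, were not analysed here. The cells were sorted at E11 from the mouse aorta-gonad-mesonephros (AGM), one of the sites where blood stem cells arise. The 12 cells of genotype mH19 delta_DMR/+ are called KO and are numbered 1 to 12; on one allele of the imprinted gene H19, the differentially methylated region (DMR) is deleted. The 10 cells of genotype mH19 flDMR/+ carry that allele floxed and undeleted, are called wildtype by the labels and are numbered 13 to 22. The labels give no strain for the embryos, no Cre driver, and no embryo, litter or sort for any cell. Each genotype therefore counted as 1 sample, no test between genotypes was possible, and SDs below describe the spread between cells only.

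The cell cycle is driven by cyclins that bind and switch on cyclin-dependent kinases. Before S phase, E2F transcription factors raise the genes for the replication machinery: the MCM helicase that opens DNA, the clamp PCNA that holds the polymerases on it, and the enzymes that make nucleotides. Later the genes for mitosis are raised together, among them cyclin B and its kinase Cdk1, the kinetochore proteins that attach chromosomes to the spindle, and the ubiquitin ligase machinery that ends mitosis. Adult blood stem cells are mostly out of cycle, whereas their embryonic precursors are known to include dividing cells. A cell in G1 or out of cycle expresses few of these genes, and single-cell libraries also miss genes that are present.

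The values are RPKM, reads scaled to transcript length and to mapped reads, and a gene at 1 RPKM or more is called detected. Detected genes per cell ranged from 1517 to 8408 in KO cells (median 3172) and from 2067 to 5716 in wildtype cells (median 4176). The column of wildtype cell 19 is shifted against the gene names in 24 of 29 stretches of 500 rows, against 0 stretches in each other cell, and without it 9 wildtype cells remained. H19 separated the genotypes, with the highest KO cell at 186 RPKM and the lowest wildtype cell at 231 RPKM. Procr, the surface receptor CD201 of pre-HSCs, was detected in 9 of the 12 KO cells and in 8 of the 9 wildtype cells, and Ptprc, the pan-blood marker CD45 that T1 pre-HSCs lack, in 1 of 12 and 1 of 9. However, 6 KO cells (1, 3, 7, 9, 11 and 12) and 2 wildtype cells (13 and 14) had fewer than 5 of 11 pre-HSC and endothelial markers detected. The part of these cells in the results was not tested. Of 8 mesenchymal markers, 6 were detected in some KO cell and 5 in some wildtype cell, with summed levels of 0.00364 to 685 RPKM and 0 to 243 RPKM per cell.

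The promoters of both gene sets were searched for short words that are known to time cell cycle genes. RefSeq promoter windows (build GRCm38.p6, 250 bases before to 50 after the annotated start) were found by symbol for 15 of 17 S genes and 22 of 26 G2/M genes. The stretch of 120 bases just before the start is shown for Cdk1, Ccnb1 and Ube2c, which have the mitotic word close to the start, for Mcm6, which has the replication word, and for Pcna, which has neither. Capitals mark matches, on either strand, to the E2F word (TTTCCCGC, TTTCGCGC, TTTGCCGC or TTTGGCGC), to the cell cycle genes homology region, CHR (TTTGAA or TTTAAA), and to the CCAAT box (CCAAT). Matches can overlap on opposite strands, as the leftmost E2F pair of Mcm6 does.
Cdk1, chr10:69352913-69353032, minus strand: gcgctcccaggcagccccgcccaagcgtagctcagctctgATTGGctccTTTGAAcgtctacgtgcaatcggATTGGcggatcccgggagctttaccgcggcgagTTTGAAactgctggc
Ccnb1, chr13:100786487-100786606, minus strand: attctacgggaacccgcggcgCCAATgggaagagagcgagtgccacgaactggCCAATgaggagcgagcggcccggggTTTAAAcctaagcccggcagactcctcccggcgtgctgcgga
Ube2c, chr2:164769809-164769928, plus strand: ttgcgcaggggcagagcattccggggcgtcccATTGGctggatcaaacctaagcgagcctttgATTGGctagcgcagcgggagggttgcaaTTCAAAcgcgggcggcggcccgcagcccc
Mcm6, chr1:128359706-128359825, minus strand: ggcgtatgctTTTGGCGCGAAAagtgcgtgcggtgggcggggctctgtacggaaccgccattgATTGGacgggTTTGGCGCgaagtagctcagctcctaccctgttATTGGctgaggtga
Pcna, chr2:132253181-132253300, minus strand: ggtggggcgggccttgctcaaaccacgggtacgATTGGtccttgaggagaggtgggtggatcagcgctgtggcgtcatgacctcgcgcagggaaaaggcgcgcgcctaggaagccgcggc

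The CHR word was in the windows of 19 of 22 G2/M genes (86.4%) and 5 of 15 S genes (33.3%). Over all 27025 genes with windows the share was 30.6%, and over the 3640 with windows among the genes compared below it was 22.1%. Bub1, Nusap1 and Cks2 were the G2/M genes without it. CCAAT was in 20 of 22 G2/M genes (90.9%) and 12 of 15 S genes (80.0%), against 41.1% of all genes and 42.8% of the genes compared below. The E2F word was in Mcm3, Mcm5, Mcm6 and Mcm7 among S genes (26.7%) and in Cdk1 among G2/M genes (4.55%), against 2.61% of all genes and 5.22% of the genes compared below. The map of motif positions shows the CHR matches of the mitotic genes on both sides of the start site and the E2F matches in the helicase genes. A match is a match of letters and does not show that a factor binds there.

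**Figure D1:**
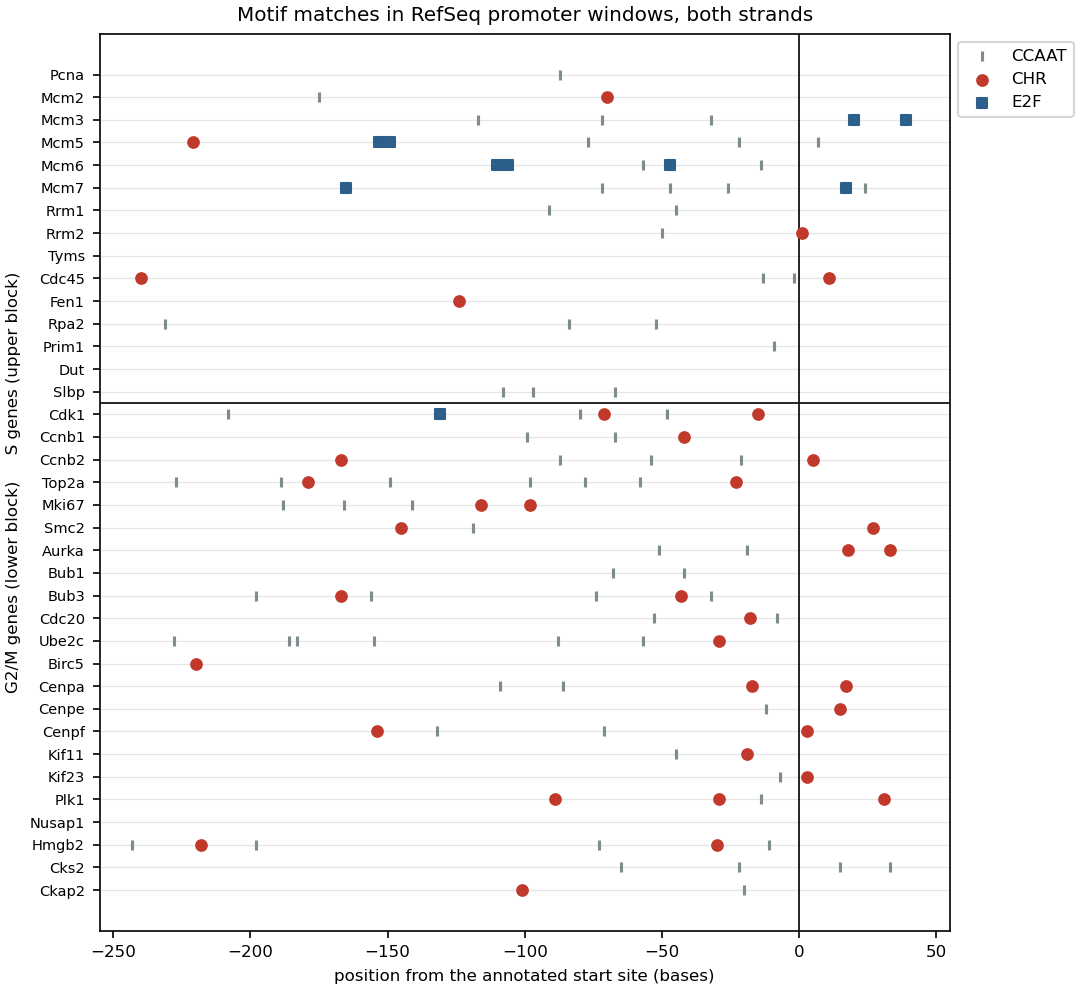
Positions of E2F (blue squares), CHR (red circles) and CCAAT (grey ticks) matches on either strand, in bases from the annotated start site (vertical line), for 15 S genes (upper block) and 22 G2/M genes (lower block) with a RefSeq promoter window. CHR matches are present in 19 of the 22 G2/M genes and in 5 of the 15 S genes.

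The cells differed widely in both gene sets, and the highest G2/M scores belonged to a few cells of each genotype. In each cell, the S score is the mean log2(RPKM + 1) of the 17 S genes and the G2/M score that of the 26 G2/M genes. The S score ranged from 0.085 in KO cell 12 to 5.18 in wildtype cell 20. The G2/M score ranged from 0.0024 in KO cell 1, where none of the 26 genes was detected, to 4.65 in wildtype cell 15. Cells 3, 7 and 11 (KO) and 15 and 20 (wildtype) had G2/M scores of 3.52, 3.65, 3.58, 4.65 and 3.72. The other 16 cells had G2/M scores of at most 2.31, so these 5 cells stood apart from the rest, and both genotypes were among them. Wildtype cell 15 combined the highest G2/M score with an S score of only 1.04, while wildtype cell 20 was high in both. The scatter of the scores shows these cells in its upper part and KO cells 10 and 12, low in both sets, at its lower left.

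**Figure D2:**
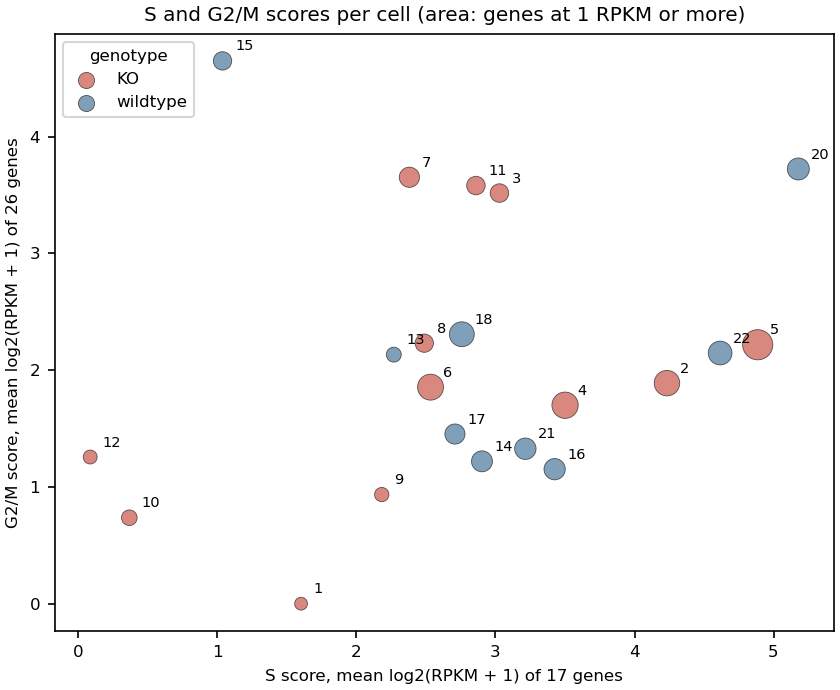
Each point is a cell, with its S score on the x axis and its G2/M score on the y axis, both as mean log2(RPKM + 1); point area is proportional to the number of detected genes, red is KO and blue is wildtype. Cells 3, 7, 11, 15 and 20 lie above a G2/M score of 3.5, and the other 16 lie at or below 2.31.

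Each cell was given a likely cycling state by how many listed genes it expressed. A cell was past the S cut or the G2/M cut when at least 50% of the S or G2/M genes were detected. Among KO cells, 2 were past both cuts (cells 5 and 11), 4 past the S cut only (2, 3, 4 and 6), 1 past the G2/M cut only (7) and 5 past neither (1, 8, 9, 10 and 12). Wildtype cells numbered 1 past both (20), 6 past the S cut only (14, 16, 17, 18, 21 and 22), 1 past the G2/M cut only (15) and 1 past neither (13). The S cut was thus passed by 6 of 12 KO cells, 50% with an exact Clopper-Pearson 95% interval of 21.1 to 78.9%, and by 7 of 9 wildtype cells, 77.8% (40 to 97.2%). The G2/M cut was passed by 3 of 12 KO cells, 25% (5.49 to 57.2%), and by 2 of 9 wildtype cells, 22.2% (2.81 to 60%). The intervals of the genotypes overlap for both cuts, and they cover counting error only.

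These states are ranges of a score and not cell types, and the S state moved with the number of detected genes. The cells past neither cut had 1517 to 3101 detected genes in KO and 2067 in wildtype, fewer than any cell past the S cut, where the lowest had 3162. For the S score, Spearman's rho with the number of detected genes was 0.80 over 21 cells (Pearson's r 0.71, and 0.66 without the 2 cells farthest from the median). The G2/M score had a rho of 0.28 (r 0.15, and 0.21 without those 2 cells). After subtraction of the mean of all compared genes in the same cell, the G2/M score fell with detected genes. Its rho was then -0.69 (r -0.60, and -0.51 without those 2 cells), and that of the S score was -0.14 (r -0.086, and -0.12). Each cell's score and gene number come from the same library, so these are descriptions of the libraries. The 5 cells with G2/M scores above 3.5 had 3128 to 4471 detected genes, below the 8408 of the library with most genes. That library, KO cell 5, passed the G2/M cut at exactly 50% and had a G2/M score of 2.22. KO cell 3, with a score of 3.52, stayed below the cut at 12 detected genes. Of the 21 cells, 9 lay within 10 percentage points of the S cut and 4 within 10 of the G2/M cut. The S cut fell between 8 detected genes (47.1%, 1 cell) and 9 (52.9%, 6 cells), and the G2/M cut between 12 (46.2%, 2 cells) and 13 (50%, 1 cell). With a cut at 60%, 3 of 12 KO cells and 3 of 9 wildtype cells were past the S cut. Each cell was also set against its own share of all compared genes detected, which are genes detected in at least 7 of the 21 cells. By this measure 4 of 12 KO cells and 3 of 9 wildtype cells had a higher share of S genes. For G2/M genes, 1 cell of each genotype did (cells 11 and 15). Only 14 of the 17 S genes and 13 of the 26 G2/M genes pass that filter themselves. A lower share is thus built into this measure, most of all for G2/M genes, and it does not show that cells are poor in them.

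**Figure D3:**
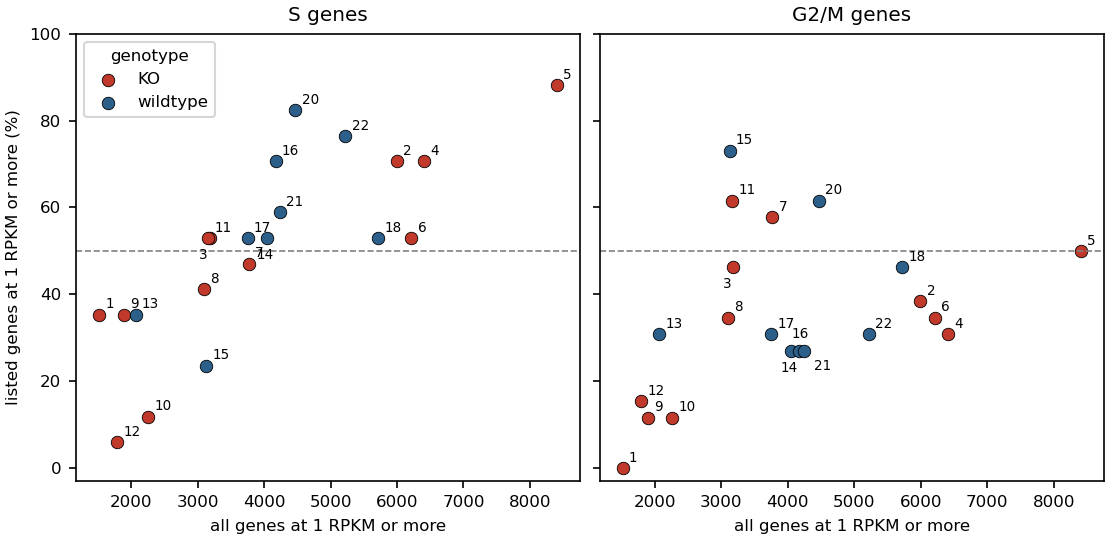
Share of the 17 S genes (left) and of the 26 G2/M genes (right) at 1 RPKM or more in each cell, in percent, against the number of all genes at 1 RPKM or more in that cell; red is KO, blue is wildtype, numbers name cells and the dashed line is the 50% cut. The S share climbs with detected genes (rho of the S score 0.80), whereas the highest G2/M shares are in cells 15, 11, 20 and 7, with 3128 to 4471 detected genes.

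Markers differed among the cells with high G2/M scores. Of 11 pre-HSC and endothelial markers, KO cells 3, 7 and 11 had 1, 4 and 3 detected, and wildtype cells 15 and 20 had 9 and 5. KO cell 11 had 5 of 8 mesenchymal markers detected with a sum of 685 RPKM, and wildtype cell 20 had 3 of 8 with a sum of 118 RPKM, while wildtype cell 15 had none. Without cells that had 2 or more mesenchymal markers detected, the G2/M cut was passed by 1 of 8 KO and 1 of 7 wildtype cells. Among cells with at least 5 of the 11 pre-HSC and endothelial markers it was passed by 1 of 6 KO and 2 of 7 wildtype cells. Of 7 erythroid markers 4 are in the table, and all 4 summed to 0 in every wildtype cell. In KO they were detected in cells 2, 3, 5 and 6, at sums of 148, 3.33, 54.7 and 110.4 RPKM, and these are 4 of the 6 KO cells past the S cut. Those cells had 5994, 3181, 8408 and 6215 detected genes, and the S state moved with that number. KO cell 4, with 6411 detected genes, was past the S cut with an erythroid sum of 0, and wildtype cells had at most 5716 detected genes. Of 7 macrophage markers 4 are in the table, and their sum had a median of 10.0 and a maximum of 700.5 RPKM in KO cells and a median of 71.7 and a maximum of 1951 RPKM in wildtype cells. In KO cells 3 of these 4 were detected in some cell and in wildtype cells 1, and C1qb was listed at 0 in all cells. Of 6 epithelial and hepatic markers 4 are in the table, and 2 were detected in some KO cell and 1 in some wildtype cell. Their sum had a median of 8.55 and a maximum of 479 RPKM in KO cells. In wildtype cells the median was 121 and the maximum 520 RPKM. The part of these markers in the states was not tested.

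**Figure D4:**
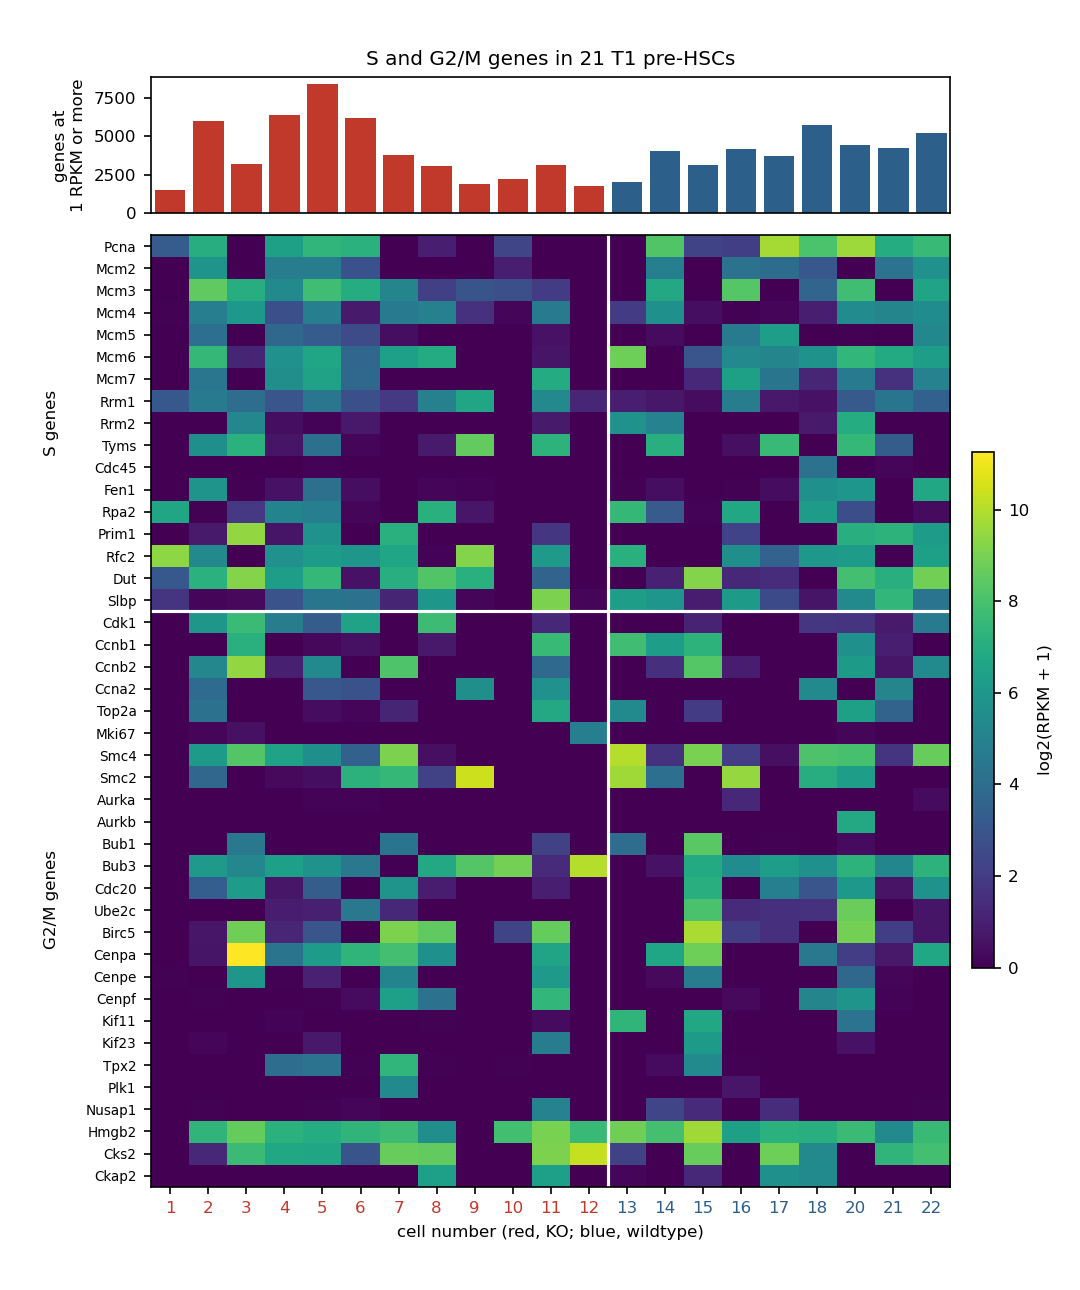
Level of each of the 43 genes (rows; S genes above the white line, G2/M genes below it) in each cell (columns; KO cells 1 to 12 left, wildtype cells right) as log2(RPKM + 1), under a bar chart of the number of genes at 1 RPKM or more. Columns 7, 11, 15 and 20 have 15 to 19 of the 26 G2/M genes at 1 RPKM or more and column 3 has 12, while Mki67, Aurka, Aurkb and Plk1 are near 0 in nearly every cell.

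Compared by genotype, both scores were on average lower in KO cells by less than the spread between cells. The S score averaged 2.51 ± 1.40 (SD, 12 cells) in KO and 3.12 ± 1.22 (SD, 9 cells) in wildtype, so that KO minus wildtype was -0.61 beside a pooled SD of 1.33. The G2/M score averaged 1.96 ± 1.17 in KO and 2.24 ± 1.21 in wildtype, which gave -0.27 beside a pooled SD of 1.19. Over cells with at least 3000 detected genes, 8 of each genotype, the S difference was 0.0086 and the G2/M difference 0.33, both with the opposite sign. Over cells with 2000 to 6000 detected genes, 6 KO and 9 wildtype, the S difference was -0.56 and the G2/M difference 0.37. Set against the mean of all compared genes in the same cell, the differences were -0.32 and 0.022. The G2/M score set in this way still moved with detected genes (rho -0.69). Among cells with at least 5 of the 11 pre-HSC and endothelial markers, 6 KO and 7 wildtype, the plain differences were -0.28 and -0.62. With fewer than 2 mesenchymal markers, 8 KO and 7 wildtype cells, they were -0.53 and -0.062.

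Among single genes, 27 of the 43 were at 1 RPKM or more in at least 7 of the 21 cells, whatever their genotype, and were compared along with 5070 genes in all. Of these 27, 9 were lower in KO cells by at least 1 in mean log2(RPKM + 1), and 22.8% of all 5070 compared genes were. By the same size 2 were higher, Rrm1 and Cdk1, where the share of all compared genes was 9.88%. Of the 14 S genes compared, 4 were lower by that size and 1 higher, and in the G2/M set 5 of 13 were lower and 1 higher. The median difference was -0.43 for the S and 0.21 for the G2/M genes compared, and -0.25 for all compared genes (quartiles -0.92 and 0.37). Over all 43 genes without that filter, 13 were lower and 2 higher by at least 1, against 10.6% and 5.85% of the 14833 genes in the table. These sets are unlike in detection, as 27 of the 43 and 5070 of the 14833 genes passed the filter. A gene near 0 in all cells cannot differ by 1, so the unfiltered shares are no like background for the 43. For every one of the 43 genes the ranges of the genotypes overlapped, and the difference was smaller than the pooled SD over cells. The shares of all compared genes for which each of these holds were not counted, so neither can be read as a result about these 43 genes. Ranges always overlap where both genotypes have cells at 0, in any gene. With each cell shifted to an equal mean of all compared genes, 7 of the 27 were lower and 5 higher, against 16.4% and 15.6% of all compared genes, and the median of all compared genes moved from -0.25 to 0.038. Over cells with 2000 to 6000 detected genes, 7 of 24 were lower and 8 higher, against 30.5% and 14.2% of the genes compared there.

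**Figure D5:**
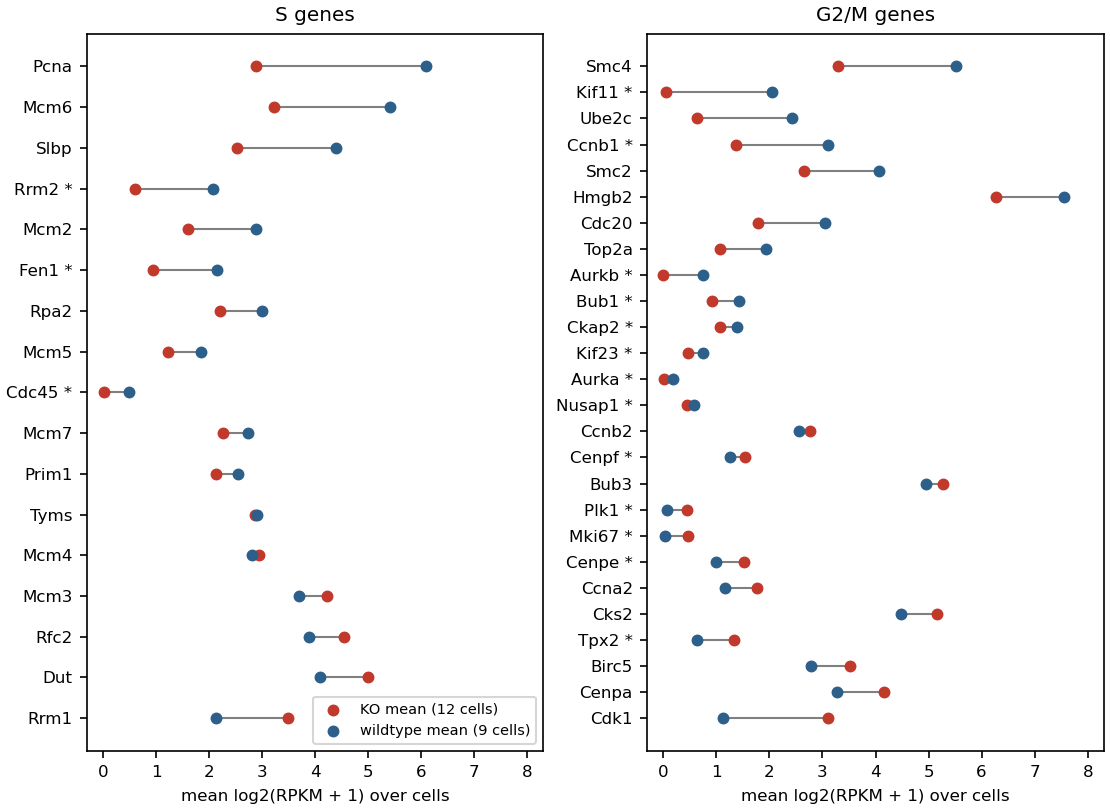
Mean log2(RPKM + 1) of each gene over 12 KO cells (red) and 9 wildtype cells (blue), joined by a line, for S genes (left) and G2/M genes (right), ordered by the difference; an asterisk marks genes detected in fewer than 7 of the 21 cells. Pcna, at 2.89 in KO and 6.08 in wildtype cells, has the longest line, and Rrm1 and Cdk1 are the genes at least 1 higher in KO cells.

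The helicase that opens DNA at replication origins is a ring of Mcm2 to Mcm7, and the differences of its subunits by genotype ranged from below 0 to above 0. Mcm6 was at 0, 6.64 and 183 RPKM (lowest, median and highest) in KO cells and at 0, 53.0 and 436 RPKM in wildtype cells. Mcm2 was at 0, 0 and 56.8 RPKM in KO and at 0, 14.8 and 50.4 RPKM in wildtype cells. Their differences of mean log2(RPKM + 1) were -2.18 and -1.29, and among cells with at least 5 of the 11 pre-HSC and endothelial markers they were -0.61 and 0.18. Mcm5 and Mcm7 lay between, at -0.61 and -0.46. Mcm5 reached 16.2 RPKM in the highest KO and 79.8 RPKM in the highest wildtype cell, with medians of 0.164 and 0.0434 RPKM. Mcm7 reached 123 and 83.0 RPKM, with medians of 0 and 2.03 RPKM. The signs of the smaller differences were not stable. Mcm4 ranged from -0.22 to 0.48 with single cells left out, below 0 in 10 of the 21 runs, and was -0.13 with cell 19. Mcm5 was at 0.14 between medians, and Mcm7 ranged up to 0.0013 with single cells left out. Mcm3 was at 0, 20.4 and 365 RPKM in KO and 0, 11.9 and 312 RPKM in wildtype cells, and the difference was 0.53 (0.070 to 1.11 with single cells left out) with detection in 10 of 12 and 5 of 9 cells. Mcm4 was at 0, 14.5 and 63.6 RPKM in KO and 0.0602, 3.05 and 49.1 RPKM in wildtype cells, and the difference was 0.12. KO cells 2, 4 and 5 had Mcm2, Mcm3, Mcm4, Mcm5, Mcm6 and Mcm7 all detected, as did wildtype cell 22 alone of its genotype.

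At the replication fork, Pcna had the largest difference of all 43 genes. Its lowest, median and highest values were 0, 2.53 and 173 RPKM in KO cells and 0, 191 and 874 RPKM in wildtype cells. It was detected in 6 of 12 KO cells and 8 of 9 wildtype cells, with a difference of -3.19. That difference was -1.41 among cells with at least 5 of the 11 pre-HSC and endothelial markers, and -5.93 between medians over cells. The KO cells with over 80 RPKM were 2, 4, 5 and 6, which are also the 4 KO cells with most detected genes, while wildtype cells 14, 17, 18, 20, 21 and 22 exceeded 120 RPKM. Fen1, the nuclease that trims Okazaki fragments, was detected in 2 of 12 KO cells and 3 of 9 wildtype cells, and Rpa2, a subunit of the single-strand binding protein, in 5 of 12 and 5 of 9. Prim1, the primase subunit, was detected in 4 of 12 and 4 of 9, and Rfc2, a subunit of the loader that places PCNA on DNA, in 8 of 12 and 6 of 9. Cdc45, a partner of the helicase, was detected in wildtype cell 18 only, at 17.9 RPKM.

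Among nucleotide enzymes the subunits of ribonucleotide reductase lay in opposite directions. Rrm1, the large subunit, was at 0.00537, 11.3 and 101 RPKM in KO cells and 0.279, 0.905 and 25.7 RPKM in wildtype cells. It was detected in 11 of 12 KO cells and 4 of 9 wildtype cells, with a difference of 1.36. Rrm2, the small subunit whose level is limiting in S phase, was detected in 1 of 12 KO cells (cell 3, 36.6 RPKM) and in 3 of 9 wildtype cells (13, 14 and 20, up to 125 RPKM), a difference of -1.46 with a median of 0 in both genotypes. Tyms, thymidylate synthase, was detected in 5 of 12 KO cells and 4 of 9 wildtype cells, with a difference of -0.026. Dut, which removes dUTP, was detected in 9 of 12 and 7 of 9, with a difference of 0.90. Slbp, which binds the stem-loop of histone mRNAs, was at 0, 1.78 and 531 RPKM in KO and 0.557, 41.0 and 175 RPKM in wildtype cells, and the difference was -1.87. Among cells with at least 5 of the 11 pre-HSC and endothelial markers, the differences of Rrm1, Rrm2 and Slbp were 0.78, -0.90 and -0.96, and that of Rrm2 was -0.14 with fewer than 2 mesenchymal markers.

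The mitotic kinase Cdk1 and its cyclins did not follow the same cells. Cdk1 was at 0, 5.18 and 211 RPKM in KO cells and 0, 0.757 and 25.0 RPKM in wildtype cells. The values in KO cells 2, 3, 4, 6 and 8 lay above every wildtype value, and wildtype cell 22 held the highest wildtype value; the difference was 1.98, and 3.27 among cells with at least 5 of the 11 pre-HSC and endothelial markers. Ccnb1, cyclin B1, was detected in 2 of 12 KO cells and 4 of 9 wildtype cells, with maxima of 197 and 225 RPKM, medians of 0 and 0.911 RPKM and a difference of -1.75. Wildtype cells 13 and 14 had Ccnb1 at 225 and 76.3 RPKM with Cdk1 listed at 0. Ccnb2, cyclin B2, was detected in 5 of 12 and 4 of 9, with a difference of 0.21. Ccna2, cyclin A2, which acts in S phase and G2, was at 0, 0 and 50.5 RPKM in KO and 0, 0 and 41.1 RPKM in wildtype cells, and the difference was 0.59, or -0.66 among cells with fewer than 2 mesenchymal markers. Cks2, a small subunit of the cyclin-dependent kinases, was among the widely detected genes, in 9 of 12 KO cells and 6 of 9 wildtype cells.

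Among chromosome proteins, detection ran from nearly every cell (Hmgb2) to a single cell (Mki67). Smc4, a condensin subunit that compacts chromosomes, was at 0, 5.29 and 531 RPKM in KO and 0.375, 256 and 1031 RPKM in wildtype cells, and the difference was -2.22. Smc2, its partner in condensin, was detected in 5 of 12 and 5 of 9 cells, with a difference of -1.42. Top2a, the topoisomerase that untangles sister chromatids, was at 0, 0.0022 and 111 RPKM in KO and 0, 0.0054 and 85.3 RPKM in wildtype cells, and the difference was -0.87, or 0.10 over cells with 2000 to 6000 detected genes. Hmgb2, a chromatin protein that is high in dividing cells, was the most widely detected of the G2/M genes, in 10 of 12 KO cells and 9 of 9 wildtype cells, at medians of 165 and 199.9 RPKM. Mki67, the source of the Ki-67 proliferation antigen, was detected in KO cell 12 only, at 27.1 RPKM, and reached 0.164 RPKM among wildtype cells. Genes with processed pseudogenes or close paralogues, such as Hmgb2, may share reads with them.

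Kinetochore and checkpoint genes ranged from sparse to widely detected. The 5 cells past the G2/M cut (5, 7, 11, 15 and 20) were chosen by these same genes, so counts in them are a description. Cenpe, the kinetochore motor, was detected in all 5 cells past the G2/M cut and in 1 of the other 16, and Birc5 (survivin, of the chromosomal passenger complex), Ccnb2 and Cenpa (the centromeric histone) in all 5 and in 7, 4 and 7 of the 16. Cenpa was at 2480 RPKM in KO cell 3, the highest value of any of the 43 genes. Cdk1 was at 1.43 RPKM in the median cell past that cut and at 0.379 RPKM in the median other cell. Bub1, a checkpoint kinase, had 3 of 12 KO cells and 2 of 9 wildtype cells with detection, and Bub3, its partner, had 10 of 12 and 7 of 9. Aurkb, the passenger complex kinase, was detected in wildtype cell 20 only, at 111 RPKM, Plk1, a mitotic kinase, in KO cell 7 only, at 41.2 RPKM, and Aurka, a centrosome kinase, in wildtype cell 16 only, at 1.42 RPKM.

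Genes of the spindle were sparse, while Ube2c and Cdc20, of mitotic exit, were detected in more cells. Kif11, the motor that separates spindle poles, was at 0, 0.0028 and 0.269 RPKM in KO cells and 0, 0 and 164 RPKM in wildtype cells, being detected in cells 13, 15 and 20; the difference was -2.01. The genotypes had medians that differed by 0.0040 in the other direction on the log2(RPKM + 1) scale. Ube2c, the ubiquitin-conjugating enzyme of the anaphase-promoting complex, was at 0, 0 and 21.8 RPKM in KO and 0, 1.54 and 410 RPKM in wildtype cells, and the difference was -1.79. Cells 15 and 20 held the high wildtype values, and the difference was -1.08 without cell 15 and -1.0 without cell 20. Cdc20, an activator of that complex, was detected in 4 of 12 and 5 of 9 cells, with a difference of -1.26. Tpx2, which activates Aurora A, was detected in 3 of 12 KO cells and 1 of 9 wildtype cells, Kif23, a cytokinesis motor, in 1 of each, Nusap1, a spindle protein, in 1 of 12 and 3 of 9, Cenpf, of the outer kinetochore, in 3 of 12 and 2 of 9, and Ckap2, of the spindle poles, in 2 of 12 and 3 of 9.

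Pairs of these genes varied together across cells only weakly. The median Spearman rho over 21 cells was 0.26 for pairs of compared S genes and 0.20 for pairs of compared G2/M genes, against 0.17 for all pairs of compared genes. With each cell centred on its own mean, the medians were 0.061, 0.14 and 0.0078. Ccnb2 and Cdc20 had the highest rho among G2/M pairs, 0.75 and also 0.75 after centring, and were detected together in 7 cells of 11 that had either. Mcm5 and Mcm7 led the S pairs, at 0.71 and 0.63 after centring. S genes with G2/M genes had a median of 0.097, and -0.038 after centring, although Prim1 with Ccnb2 reached 0.77. These pairs share libraries and detected gene numbers, and the highest of many pairs are picked by their size.

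The wider cell cycle machinery was followed in 7 further lists with 143 different genes, of which 133 are in the table and 57 were compared. By at least 1, 13 of these 57 lay lower in KO cells (22.8%) and 10 higher (17.5%), with a median difference of 0.018. The shares over all compared genes were 22.8% and 9.88%, against which the counts of each list below stand. Among G1 cyclins and kinases, 1 of 6 compared genes was lower and 2 were higher by that size. The higher ones, Ccnh and Cdk7, are partners in the kinase that activates other cyclin-dependent kinases, with differences of 2.21 and 1.80 and detection in 6 and 7 of 12 KO and 3 and 3 of 9 wildtype cells. Ccnd2, a cyclin of G1 entry, was at -1.77, with detection in 6 of 12 and 7 of 9. Of the E2F and mitotic transcription factors only E2f4, a largely repressive E2F, was compared, at 0.31.

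Inhibitors had 2 of 6 compared genes lower by at least 1 and 0 higher, where 22.8% and 9.88% of all compared genes were. With so few genes a list, 1 gene moves a share far. Cdkn1c, the p57 inhibitor that holds blood stem cells out of cycle, was at 0, 58.9 and 257 RPKM in KO and 14.6, 73.9 and 325 RPKM in wildtype cells, and the difference was -1.95. Cdkn2d, an inhibitor of the G1 kinases, was at -1.40 and Btg1, an antiproliferative gene, at -0.81. In origin licensing and firing 2 of 7 were lower and 0 higher. Orc2 and Orc6, subunits of the origin recognition complex, were at -2.02 and -1.01, and Gmnn, geminin, which blocks relicensing, at -0.96. For the replication fork 3 of 14 were lower and 1 higher. Rfc1, the large subunit of the clamp loader, was detected in 1 of 12 KO cells and 6 of 9 wildtype cells, with a difference of -3.36. Rpa3, the small subunit of the single-strand binding protein, was at -2.04 and Rfc5, another loader subunit, at 1.25.

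The spindle checkpoint and anaphase-promoting complex list had 1 of 10 compared genes lower and 3 higher by at least 1, the higher ones all subunits of that complex. Anapc13 was at 3.24, with detection in 11 of 12 KO cells and 6 of 9 wildtype cells. Cdc23 and Cdc16 were at 1.37 and 1.22, each with detection in 9 of 12 KO and in 3 and 6 of 9 wildtype cells. Among genes of chromosomes, kinetochore, spindle and cytokinesis, 4 of 13 were lower and 4 higher. Spc24 and Spc25, which are partners in the Ndc80 kinetochore complex, were at 1.88 and -1.87, and Cenph, of the inner kinetochore, at -1.65. None of these differences was tested.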

How the data were processed

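Single cells were hand-picked into lysis buffer with ERCC spike-in RNA, per the labels' protocols. The sample labels name a Smart-Seq (5′ switching) library, while the protocol text cites another single-cell method. The authors deposited RPKM for 1 column per cell; Cufflinks 2.1.0 and build mm10 are named in the submitters' processing notes, with aligner and annotation not given in the sources used here. Depth per cell is unknown and values could not be thinned. Columns were assigned by cell number. The 26 adult blood stem cells, whose table holds none of the members, and the 5 methylation pools were not used here.

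Differences are KO minus wildtype in mean log2(RPKM + 1), with a pseudocount of 1, which understates changes of low genes. Genes were compared when at 1 RPKM or more in at least 7 of 21 cells, and 1 or more was the size counted, not a test. No member row stands among the 24 rows ahead of the alphabetical order, and 0 pairs of cells shared digit strings (at least 5 digits) in member rows. All 43 gene identifiers matched their symbols. Full values are given for the MCM subunits, Pcna, Cdk1, Ccnb1, Ccna2, Mki67, Top2a and the 5 members of each set with the largest difference, and up to 3 genes are named from each further list. The members and lists were chosen with earlier results of these data known. The calculation of differences was checked on simulated data; no difference between genotypes was tested. Alternatives were other pseudocounts, filters, cuts, scalings and cell subsets, including each cell left out. Tools were Python 3.11.15, pandas 2.3.3 and SciPy 1.17.1.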

Additional observations from a re-analysis of the deposited data

Results flagged for a closer look

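Scores and fully reported genes were examined in the 9 wildtype cells for a cell far from the others, 20 groups of values in all. The measure was Dixon's ratio, the gap to the next cell divided by the range. Chance alone would mark about 1 in 20 groups if values were normally distributed. Genes with many cells at 0 are not, so that rate does not apply to them. Cdk1 in wildtype cell 22 was at 4.70 on the log2(RPKM + 1) scale, and the next wildtype cell at 1.80. Mki67 in wildtype cell 20 was at 0.22 on that scale, with every other wildtype cell at 0. Against 8 values of exactly 0 any value above 0 stands apart in this way, and 0.164 RPKM is below the detection level of 1 RPKM. The 12 KO cells were not examined in this way.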

How the results depend on the processing

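No paired analysis was possible because KO and wildtype cells share no replicate number. With single cells left out, the S difference ranged from -0.87 to -0.35 and the G2/M difference from -0.42 to 0.031. The wildtype share past the S cut was 33.3% with a cut at 60% and 33.3% when set against the cell's share of all compared genes. Members lower by at least 1 numbered 4 of 27 with a pseudocount of 10 (8.62% of all genes compared) and 5 of 20 among cells with at least 5 pre-HSC markers (14.7%), against 9 of 27. They numbered 12 with a pseudocount of 0.1 (34.6%), 10 with medians over cells (28.3%) and 7 with equal means (16.4%). Over cells with 2000 to 6000 detected genes 7 of 24 were lower (30.5%), and with fewer than 2 mesenchymal markers 8 of 19 (22.0%). Members higher by at least 1, against 2 of 27, numbered 5 with a pseudocount of 0.1 (15.3% of all genes compared), 1 with a pseudocount of 10 (3.35%), 6 with medians over cells (13.5%), 5 with equal means (15.6%), 8 of 24 over cells with 2000 to 6000 detected genes (14.2%) and 4 of 19 with fewer than 2 mesenchymal markers (17.1%). With at least 5 pre-HSC markers 2 of 20 were higher (24.8%). With single cells left out that count ranged from 2 to 6, at 4 or more without KO cell 1, 2, 6, 9, 10 or 12 or wildtype cell 15, 20, 21 or 22. The share of all compared genes was not counted in those runs. Whether such shifts are particular to the members cannot be told from them. Of the 18 genes given in full, 7 had the other sign under some alternative: Mcm2 (0.18 with at least 5 pre-HSC markers), Kif11 (0.0040 with medians over cells), and Mcm4, Mcm5, Mcm7, Ccna2 and Top2a, whose differences were under 1. Of 162 alternatives to the scores, cuts and counts, 142 stayed within the spread, the interval or 1.5 times the count. A score difference stayed within the spread when it moved by less than the pooled SD, which allows a change of sign. The G2/M difference of 0.37 over cells with 2000 to 6000 detected genes was counted so. KO shares cannot move when a wildtype cell is added. The 142 are therefore no measure of how stable the results are. With wildtype cell 19 as deposited the S difference was -0.61 and the G2/M difference -0.49. That run and those by marker were chosen after seeing the data. The cause of each change was not tested. Unknown depth limits what a value of 0 can show.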

Other observations

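Chosen after its values were seen, KO cell 12 had 1796 detected genes, 1 of 17 S genes and 4 of 26 G2/M genes detected. Those 4 were Cks2 at 1236 RPKM, Bub3 at 1024 RPKM, Hmgb2 at 191 RPKM and Mki67 at 27.1 RPKM, and its Cks2 and Bub3 values are the highest of any cell. Wildtype cell 13, with 2067 detected genes, had the highest Smc4, 1031 RPKM, and Mcm6, 436 RPKM, of all cells, with Pcna listed at 0.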
